A study of Mus musculus with 5 samples.

Results

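The miR-29 family comprised 3 of the 217 miRNA assays of this series, miR-29a, miR-29b and miR-29c, chosen by assay name alone. They were followed in tibialis anterior, a leg muscle, of male C57BL/6J mice aged 4 to 6 months. Injured muscles had received 100 µl of 2.5 µM cardiotoxin, a membrane-lysing toxin of cobra venom that destroys myofibres but spares the stem cells that rebuild them, and were taken on days 1, 3, 4, 7 and 21. Baseline muscles came from mice of the same strain and sex that received no injection at all, so the effect of the needle and fluid cannot be told apart from that of the toxin. Per the labels there were 4 mice per time point, the toxin went into both hind limbs, and a portion of each muscle was homogenised whole. Fewer cells of a type and less RNA per cell cannot be told apart in such samples.

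Members of the miR-29 family bind mRNAs of fibrillar collagens, elastin and other matrix proteins and lower their output, and loss of the family is a known feature of fibrosis in heart, lung, liver and dystrophic muscle. In muscle cells they also act on YY1, a repressor of muscle genes, and they increase as myoblasts differentiate. TGF-beta signalling is known to repress them.

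The mature 3p arms are shown because the family acts through a shared seed and its members differ by few bases outside it. The sequences are those of RefSeq (GRCm38.p6), 5′ to 3′, with the seed, bases 2 to 8, in capitals:
miR-29a-3p: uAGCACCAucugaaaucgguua
miR-29b-3p: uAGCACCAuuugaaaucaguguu
miR-29c-3p: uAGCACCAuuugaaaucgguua

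All 3 names matched an entry, and of 1679 mature mouse miRNA names in the table these 3 alone carried this seed. With positions counted from 1 at the 5′ end, miR-29a and miR-29c differed only by C10U. Between miR-29c and miR-29b the substitutions were G18A, U21G and A22U, and miR-29b was longer by 1 base. The assay names do not state the arm, and the files hold no measure of how far one assay reads another member.

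These sequences come from 4 hairpins at 2 loci. Mir29a lies at chr6:31062660-31062747 and Mir29b-1 at chr6:31063023-31063093, both on the minus strand, 275 bases apart, with no other gene overlapping them in the RefSeq table. Mir29b-2 lies at chr1:195037040-195037120 and Mir29c at chr1:195037547-195037634, both on the plus strand, 426 bases apart and within the long noncoding RNA gene A330023F24Rik. The mature miR-29b of both loci is identical, so its assay cannot tell them apart, whereas miR-29a and miR-29c each come from a single locus.

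TaqMan RT-PCR gave each level as a threshold cycle (Ct), the cycle at which product becomes visible. A lower Ct means more RNA, and 1 cycle is about a factor of 2. Each arm held 4 Ct values per assay, taken here as its 4 mice, which the files do not state. Were any of them repeats of 1 RNA, the p-values would measure technical spread. Every miR-29 value was measured, between Ct 14.88 and Ct 25.21, well under the detection limit of 35.

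The reference RNAs moved unequally after injury. The mean Ct of U6, the spliceosomal RNA marked as endogenous control, was 14.8 at baseline and 12.5 at day 1, while that of the cytoplasmic RNA Y1 went from 20.3 to 22.7. The reference RNA snoRNA202 moved less, with arm means between 13.9, at day 4, and 14.5, at baseline. The median miRNA moved by -0.38, -0.71, -0.94, -1.19 and -0.15 cycles on days 1, 3, 4, 7 and 21 in raw Ct. Log2 changes are therefore given relative to the median of 205 miRNAs and beside that relative to U6. The words rose and fell are kept for miRNAs that passed limma's test in the same direction on both scales, with an adjusted p under 0.05 over all miRNAs tested. The scaling sets the balance of calls: at day 1, 51.5% of the miRNAs past the threshold were higher on the median scale, 12.0% on that of U6 and 98.9% on that of Y1. Relative to snoRNA202, U87 and snoRNA135 the share was 54.6%, 41.0% and 22.7%.

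All 3 miR-29 members fell after injury, but passed on both scales from different days on. miR-29c fell from day 1 on and stood 13.2-fold below baseline at day 7. miR-29a fell from day 3 on, to 4.46-fold below baseline at day 7. miR-29b passed on both scales at days 7 and 21 only, and was 2.66-fold below baseline at day 21. These folds are on the median scale. Of the median and U6 scales, miR-29a and miR-29b passed as lower at day 1 only on that of U6 (-2.28 and -2.08). Their onset thus depends on the scaling. At day 21 all 3 were still below baseline.

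**Figure D1:**
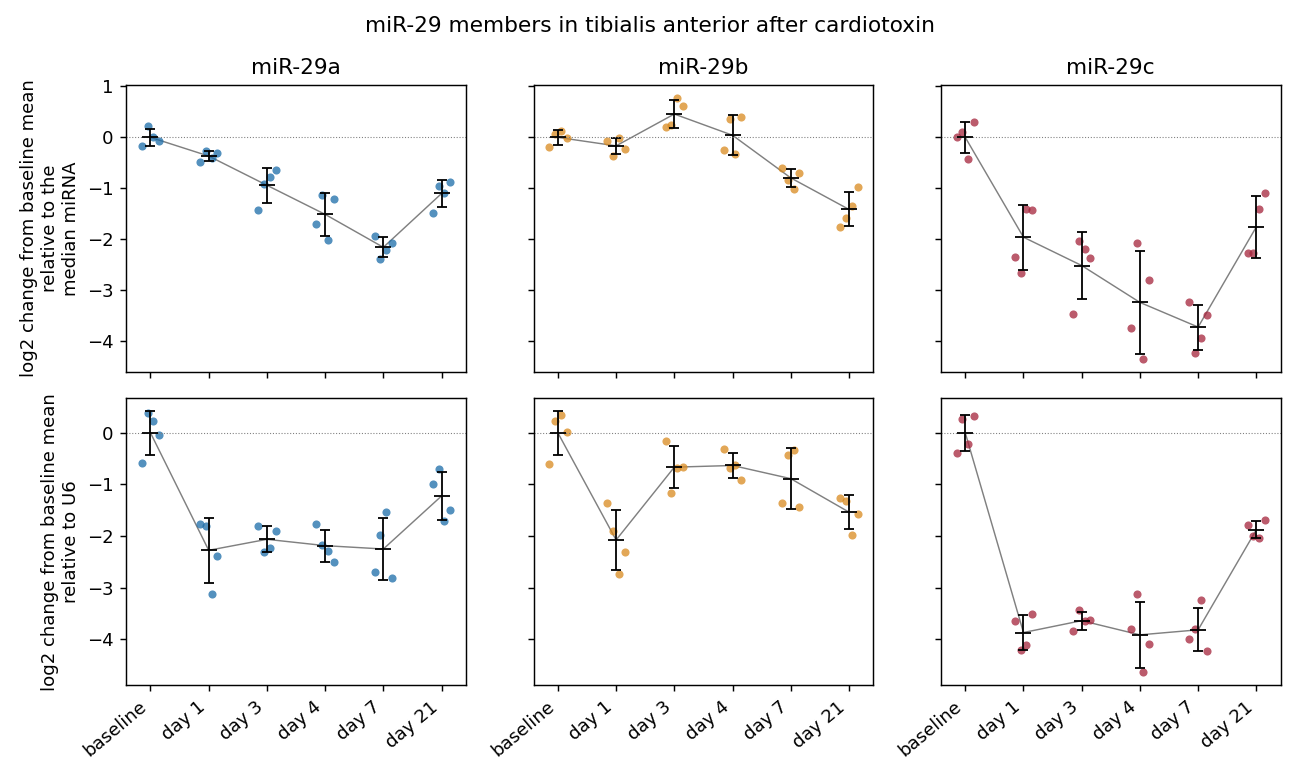
Log2 change of miR-29a, miR-29b and miR-29c from the baseline mean, by time after cardiotoxin, relative to the median miRNA (top) and to U6 (bottom). Points are the 4 values of an arm, and bars are their mean and SD. miR-29c lies lowest at day 7 in the top row, at -3.72, and miR-29b at day 21, at -1.41.

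For miR-29c the baseline Ct values were 18.36, 18.23, 18.45 and 17.59. They were 20.26, 20.47, 18.92 and 19.28 at day 1, and 20.92, 19.67, 19.33 and 19.94 at day 3. Every injured value lay above the highest baseline value even before scaling. Day 4 gave 20.88, 19.30, 21.73 and 19.90, and day 7 gave 20.06, 21.28, 21.00 and 20.41. At day 21 the values were 20.19, 20.33, 19.41 and 19.13. The spread was widest at day 4, with an SD of 1.07 cycles, where the third value stood high and the second low.

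Relative to the median miRNA, miR-29c changed by -1.96 ± 0.43 (SE of the fit, 4 values per arm), -2.52, -3.24, -3.72 and -1.76 on days 1, 3, 4, 7 and 21, with the same SE throughout. The adjusted p of limma's test lay between 5.80e-08, at day 7, and 0.00110, at day 21. Relative to U6 the changes were -3.87, -3.64, -3.91, -3.82 and -1.88 (SE 0.36), so that on that scale the fall was about as large at day 1 as at day 7. The call held at every time point when each of the 8 values behind it was left out in turn. Of the 8 other scalings, Y1 turned the day 1 change to 0.78, and none turned a later one, although relative to Y1 the day 21 change was -0.69 and did not pass.

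miR-29a, from the chromosome 6 locus, started at Ct 15.51, 15.07, 14.98 and 14.92. Its day 1 values, 15.36, 15.04, 14.89 and 15.12, covered almost the same range. Day 3 gave 15.83, 15.52, 14.88 and 15.18. Day 4 gave 15.81, 15.32, 16.35 and 15.27, so that in raw Ct miR-29a overlapped baseline through day 4. Day 7 gave 15.72, 16.41, 16.25 and 15.96. Day 21 gave 16.36, 15.98, 16.06 and 15.89, and from day 7 all values lay above the baseline range.

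Relative to the median miRNA, miR-29a changed by -0.37 ± 0.19 at day 1 (95% interval -0.76 to 0.03, limma adjusted p = 0.0812), which did not pass. It then stood at -0.94, -1.51, -2.16 and -1.10 on days 3, 4, 7 and 21, with limma adjusted p-values between 8.78e-10 and 0.000114. Relative to U6 the changes were -2.28 ± 0.39, -2.06, -2.19, -2.25 and -1.22. Of these 2 scales, day 1 thus passed on that of U6 alone, where 65.9% of miRNAs were called lower. It also passed relative to snoRNA135 (-1.72), U87 (-0.82) and the median Ct (-0.52). Relative to snoRNA202 and with quantile scaling it did not pass (-0.23 and -0.07). Raw Ct gave 0.02, and relative to Y1 the change was 2.37. Y1 also turned the day 3 change, to 0.38, and quantile scaling turned those of days 3 and 4, to 0.12 and 0.25. At day 7 quantile scaling left -0.43 and at day 21 -0.20, neither of which passed, and relative to Y1 the day 21 change was -0.03. The day 21 call was lost only when the third value of day 21 was left out (limma adjusted p = 0.0510 relative to U6).

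miR-29b is encoded at both loci. Its Ct was 24.11, 23.80, 23.44 and 23.44 at baseline and 23.52, 23.72, 23.07 and 23.61 at day 1. At day 3 it was 22.78, 22.94, 21.90 and 22.51, and all 4 values lay below the baseline range, on the side of more RNA. They did so again at day 4, with 22.94, 22.41, 23.25 and 22.25. Day 7 gave 22.97, 23.44, 23.63 and 23.16. At day 21 the values were 25.21, 25.18, 24.90 and 24.56, all above the baseline range.

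After scaling, miR-29b changed by -0.17 ± 0.19, 0.46, 0.04, -0.80 and -1.41 on days 1, 3, 4, 7 and 21 on the median scale. Relative to U6 the changes were -2.08 ± 0.38, -0.67, -0.63, -0.89 and -1.54. At day 1 miR-29b, too, passed on the U6 scale (limma adjusted p = 1.46e-05) but not on the median scale. It also passed relative to snoRNA135 (-1.52) and with quantile scaling (-0.49). Relative to snoRNA202, U87 and the median Ct it did not pass (-0.03, -0.62 and -0.32). In raw Ct it stood at 0.22, and relative to Y1 at 2.57. The median and U6 scalings disagreed in sign at days 3 and 4, and no change is called there. At day 7 the call was narrow, with a limma adjusted p of 0.000497 on the median scale and 0.0403 on that of U6. It held with 3 of 8 values left out singly and was lost without any baseline value but the first, and without the first or last of day 7. Relative to snoRNA202 the change was -0.14, relative to Y1 0.31. The day 21 fall held with each value left out (limma adjusted p between 4.09e-07 and 8.53e-06 on the median scale), and no scaling turned its sign, although relative to Y1 it was -0.34 and did not pass.

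Differences between members need no reference RNA, because the Ct of one is subtracted from that of another in the same value position. The mean of such a difference does not depend on how values are paired, but its spread does. For miR-29a and miR-29b at baseline the SD of the difference was 0.12, against 0.27 and 0.32 for their Ct values.

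miR-29c stood further below baseline than both relatives on days 1 to 7. Against miR-29a, with the baseline mean set to 0, the log2 difference was -1.86, -2.39, -0.99 and -1.12 at day 1 and -1.30, -1.83, -1.71 and -1.41 at day 7, against 0.19, -0.12, -0.43 and 0.37 at baseline. No value of days 1 to 7 reached the baseline range. The mean difference was -1.59 ± 0.32 (limma SE), -1.58, -1.73 and -1.57 on days 1, 3, 4 and 7, about 3.02-fold at day 1. miR-29c thus stood apart from miR-29a by day 1 and kept about the same distance through day 7.

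Against miR-29b the difference of miR-29c was -1.79 ± 0.33, -2.97, -3.28 and -2.93 on days 1, 3, 4 and 7, a 9.71-fold shift at day 4. The difference of miR-29a from miR-29b was -0.20 ± 0.14 at day 1 (95% interval -0.49 to 0.09) and -1.40, -1.55 and -1.36 on days 3, 4 and 7. The neighbours miR-29a and miR-29b had thus parted by day 3, and at day 1 their ratio lay within 0.49 of its baseline value by the interval. At day 4 the 4 values, -1.45, -1.49, -1.68 and -1.60, lay within 0.23 of one another.

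At day 21 no ratio of the 3 members passed the exact test. The difference was -0.66 (95% interval -1.32 to 0.01) for miR-29c against miR-29a and -0.34 (-1.02 to 0.34) for miR-29c against miR-29b. For miR-29a against miR-29b it was 0.31 (0.02 to 0.61). Of 15 differences from baseline, 11 passed an exact two-sided permutation test, each with the smallest p that 4 against 4 values can give, 0.0286, and an adjusted p of 0.0390 over the 15. The 4 others were those of day 21 (adjusted p = 0.132, 0.214 and 0.0714 by the exact permutation test, in the order given) and miR-29a against miR-29b at day 1 (0.229). With limma the last of the day 21 differences passed as well (adjusted p = 0.0474).

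**Figure D2:**
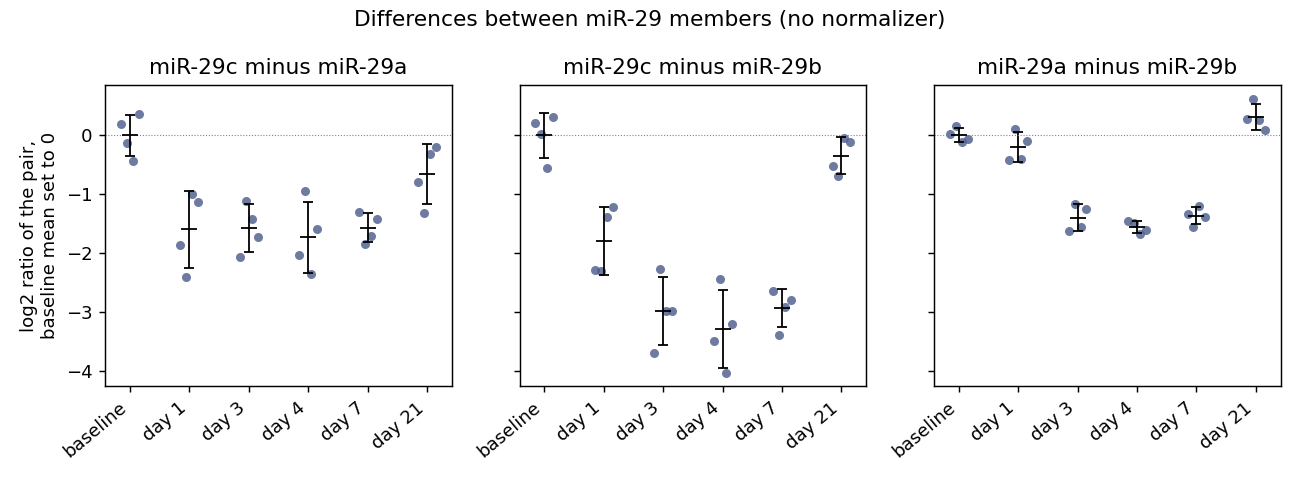
Log2 ratio of each pair of miR-29 members by time after cardiotoxin, with the baseline mean set to 0. Points are the 4 values of an arm and bars their mean and SD. The ratio of miR-29c to miR-29b was lowest at day 4, at -3.28, and at day 21 all 3 ratios lay between -0.66 and 0.31.

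Successive time points show when each member turned. From day 1 to day 3 miR-29b rose, by 0.62 ± 0.19 relative to the median miRNA (limma adjusted p = 0.00455) and 1.41 relative to U6, also with any single value left out, although relative to Y1 it changed by -0.79. It was 1 of 3 members called, where 31.0% of 213 miRNAs were called higher and 13.1% lower. From day 3 to 4 and from day 4 to 7 no member passed under both scalings, where 1.85% of 216 and 0.922% of 217 miRNAs were called lower, and 21.3% and 16.1% higher. Relative to the median miRNA alone, miR-29a changed by -0.57 and -0.65 over these steps and miR-29b by -0.84 over the second.

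From day 7 to day 21 miR-29c and miR-29a rose, while miR-29b did not. miR-29c rose by 1.97 ± 0.43 (3.91-fold, limma adjusted p = 0.000415; 1.94 relative to U6), also with any single value left out, and 5 of 216 miRNAs had a larger change. miR-29a rose by 1.06 ± 0.19 (adjusted p = 5.44e-05) and by 1.03 relative to U6 (adjusted p = 0.0438), a call lost without the first or last value of day 7 or the first or second of day 21. Under snoRNA202, U87, quantile scaling and raw Ct this change was 0.39, 0.68, 0.23 and 0.01 and did not pass. In raw Ct that of miR-29c was 0.92 and did not pass either. In this step 19.4% of miRNAs were called higher and 14.4% lower. miR-29b changed by -0.62 ± 0.19 on the median scale and -0.65 on that of U6, where it did not pass (limma adjusted p = 0.188). Over this step the ratio of miR-29c to miR-29b shifted by 2.59 (95% interval 1.91 to 3.26) and that of miR-29a to miR-29b by 1.68 (1.38 to 1.97). Neither pair of arms overlapped, with an exact permutation p of 0.0286 and 0.114 after adjustment over the 12 differences between successive time points (limma adjusted p = 3.56e-07 and 8.80e-10).

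Among all miRNAs the change of miR-29c came nearest to the lowest at day 7. Fallen members numbered 1 of 3 at day 1, where 38.9% of 211 miRNAs were called lower, 2 of 3 at day 3 (41.0% of 212) and 2 of 3 at day 4 (41.3% of 213). All 3 had fallen at day 7 (35.7%) and at day 21 (19.2%). Called higher were 9.00%, 19.3%, 25.4%, 31.5% and 22.1% of miRNAs on days 1, 3, 4, 7 and 21, and no member. With losses this common, the count of members alone says little through day 4. The order of the changes says more: miRNAs with a lower change than miR-29c numbered 23, 21, 12, 1 and 8 on days 1, 3, 4, 7 and 21. The 1 at day 7 was miR-135a, at -3.91 ± 0.21, named after its values were seen. miR-29a moved from 86 lower miRNAs at day 1 to 26 at day 7, and miR-29b from 101 at day 1 to 21 at day 21.

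**Figure D3:**
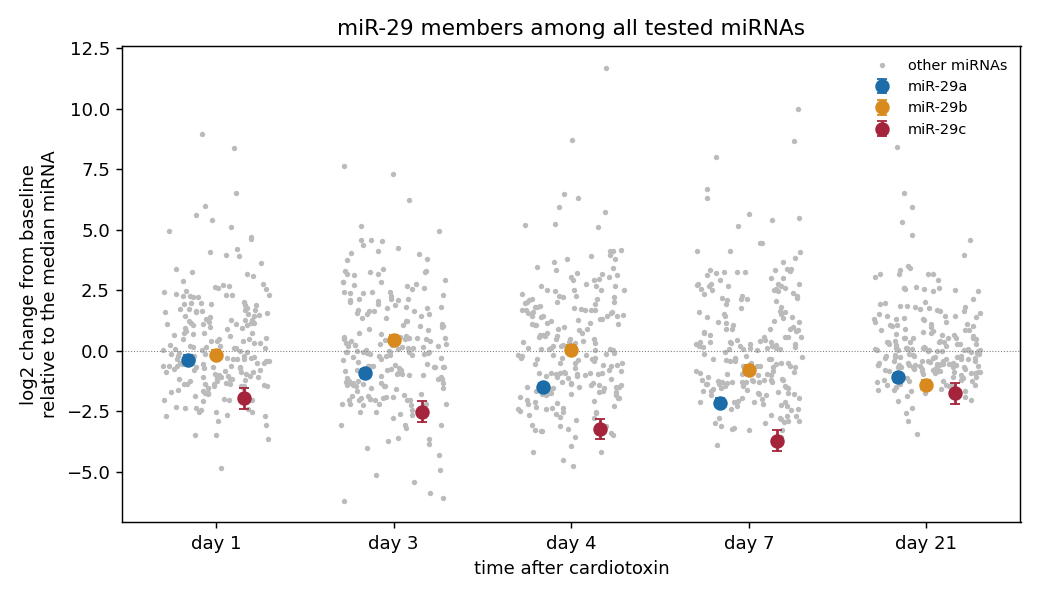
Log2 change from baseline relative to the median miRNA, by day after cardiotoxin, for every tested miRNA (grey) and the 3 miR-29 members with the SE of the fit. miR-29c moves toward the lower edge of the cloud, to -3.72 at day 7, while miR-29b stays near 0 through day 4.

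The time courses most like each member were sought over the 6 arm means, relative to the median miRNA, among 209 other miRNAs detected in every arm. These correlations describe 6 points that share their RNAs and their scaling. For miR-29c the nearest was miR-101a (r = 0.991), a miRNA known to act on Ezh2, a chromatin repressor of muscle genes. It stood at -1.90 ± 0.16 at day 1 and -3.30 at day 7, against -1.96 and -3.72 for miR-29c. miR-671-3p, miR-361, miR-30d and miR-26b followed, at r of 0.984 to 0.954.

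For miR-29a the nearest were miR-185 (r = 0.991) and miR-186 (0.966), then miR-148b, miR-150 and miR-331-5p at 0.926 to 0.913. miR-185 fell at every time point and was lowest at day 7, at -2.98 ± 0.14. miR-29c was sixth for miR-29a at 0.900 and first relative to U6. For miR-29b the nearest was miR-339-5p (0.924). On the median scale miR-339-5p, like miR-29b, was highest at day 3, at 0.89 ± 0.28, and lowest at day 21, at -0.87. The next, miR-324-3p, reached 0.822, and miR-7a, miR-7b and miR-511 ranked 117, 150 and 102 relative to U6. The correlation of miR-29b with miR-29a was 0.36 and with miR-29c 0.08, and relative to U6 these were 0.51 and 0.45.

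**Figure D4:**
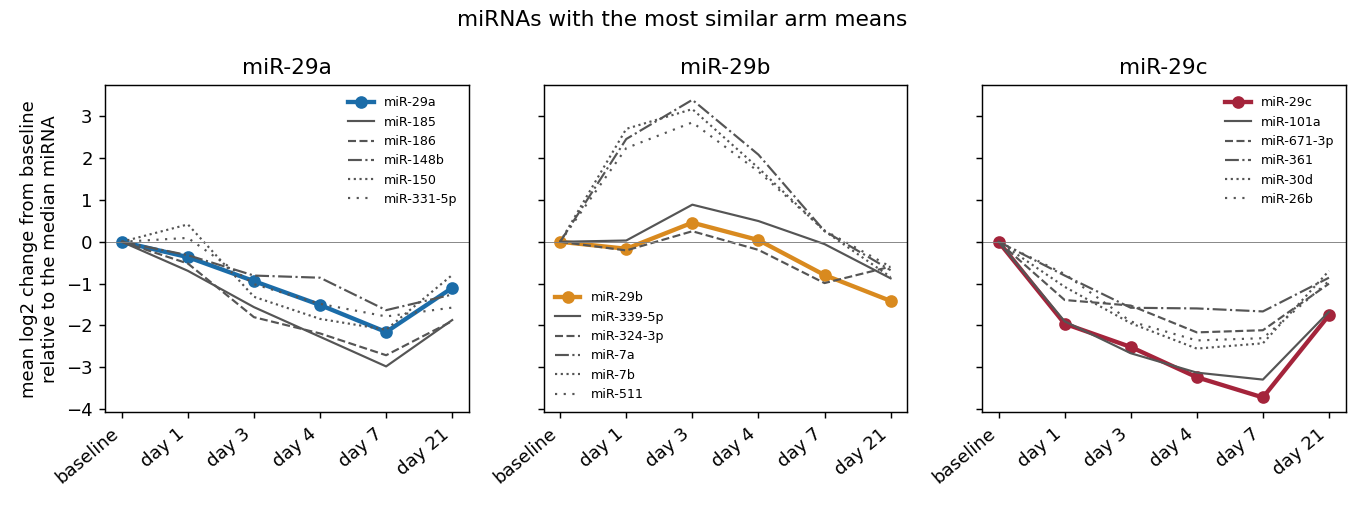
Arm means of each miR-29 member (coloured) and of the 5 miRNAs with the highest Pearson correlation to it (grey), as log2 change from baseline relative to the median miRNA. miR-101a runs beside miR-29c. On this scale miR-7a, miR-7b and miR-511 are highest at day 3, as is miR-29b, at a larger size. Relative to U6 miR-29b stood at -0.67 at day 3.

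Other miRNAs known to lower matrix genes moved in the same period. This list of 15 held miR-133 and miR-30, which act on the matrix growth factor CTGF, with miR-26, miR-101a, miR-19, miR-200 and let-7c. Of its 15 miRNAs 10 fell on each of days 1, 3, 4 and 7, and 7 fell on day 21, with 2, 2, 1, 1 and 1 higher. Over all miRNAs 38.9%, 41.0%, 41.3%, 35.7% and 19.2% were called lower on these days, and 9.00%, 19.3%, 25.4%, 31.5% and 22.1% higher. miR-133a and miR-133b in this list are also fibre miRNAs. Its median change was -2.62 at day 3 and -2.31 at day 7, against -0.05 and 0.07 over all miRNAs. miR-30c was its lowest member at day 7, at -3.55 ± 0.17, next to miR-29c at -3.72.

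Of 6 measured miRNAs known to raise matrix, some of which also mark fibroblasts, 3 rose at day 7, namely miR-21, miR-199a-5p and miR-214, and miR-192 fell. On days 1, 3 and 4 of this list 3, 1 and 1 fell and 0, 2 and 1 rose. Over all miRNAs 38.9%, 41.0%, 41.3% and 35.7% were called lower on days 1, 3, 4 and 7, and 9.00%, 19.3%, 25.4% and 31.5% higher. miR-21, a pro-fibrotic miRNA, was at 2.83 ± 0.18 at day 3 and 1.64 at day 7 (1.71 and 1.54 relative to U6), and miR-214 at 1.23 ± 0.16 at day 7. At day 7 miR-21 and all 3 miR-29 members had thus changed in opposite directions. At day 21 none of the 6 passed under both scalings, where 19.2% of all miRNAs were called lower and 22.1% higher. With so few miRNAs that count says little beside such shares. All 3 miR-29 members remained below baseline. For miR-21 limma's adjusted p was 3.50e-05 on the median scale and 0.101 on that of U6, at 1.04 and 0.92.

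miRNAs that mark cell types of muscle also moved in these samples, and their part in the miR-29 changes was not tested. All 5 measured mature fibre miRNAs were detected at baseline, as in the labelled tissue they should be. Their mean change was not limited to miRNAs detected on the day. It ranged from -4.63 to -2.67 over the 4 values of day 1 and from -6.98 to -5.58 over those of day 3. On days 4, 7 and 21 the ranges were -3.90 to -3.03, -2.66 to -1.87 and -1.46 to -0.93. Of these, 5 of 5 fell on days 1 and 4, 4 of 4 tested on day 3, when miR-499 was not detected, and 4 of 5 on days 7 and 21. The shares of all miRNAs called lower were 38.9%, 41.0%, 41.3%, 35.7% and 19.2% on days 1, 3, 4, 7 and 21. Fibre miRNAs thus had their lowest mean at day 3 and miR-29c, relative to the median miRNA, at day 7. From day 3 to day 7 miR-1, the leading fibre miRNA, went from -6.20 ± 0.47 to -3.29, and miR-29c from -2.52 to -3.72, a step that was not tested. Relative to U6 miR-1 went from -7.32 to -3.38 over these days, while miR-29c stood at -3.64 and -3.82.

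Vessel miRNAs, of endothelium and smooth muscle, had lower list means on days 3 to 7 than on day 1 or day 21. The list mean ranged from -0.49 to -0.26 at day 1, when 1 of 4 had fallen. On days 3, 4 and 7 it ranged from -2.54 to -1.99, -2.97 to -2.43 and -2.84 to -2.43, with all 4 fallen, and on day 21 from -0.97 to -0.77, with 1 fallen, miR-145. Over all miRNAs 38.9%, 41.0%, 41.3%, 35.7% and 19.2% were called lower on days 1, 3, 4, 7 and 21, and 9.00%, 19.3%, 25.4%, 31.5% and 22.1% higher. A count of 1 of 4 lies near such shares and says little. Fibroblast miRNAs ranged from -1.10 to 0.03, 1.28 to 1.62, 1.30 to 1.52, 1.28 to 1.81 and -0.27 to 1.02 on days 1, 3, 4, 7 and 21, with 1 of 4 called higher at days 3 and 4 and 3 at day 7, and 2 of 4, miR-214 and miR-199a-3p, called lower at day 1. Myeloid and lymphoid miRNAs were highest at day 1, at 3.59 to 3.88, and lay between 0.44 and 0.85 at day 21. In that list miR-147 was not detected at baseline, and the list mean was not limited to detected miRNAs. Of the 7 tested, 3, 3, 3, 2 and 0 were called higher and 0, 2, 2, 2 and 0 lower on days 1, 3, 4, 7 and 21, with miR-150 at -2.10 ± 0.21 and miR-155 at -1.21 at day 7. Their median at day 1 was 2.26 on the median scale and 0.35 on that of U6. Epithelial miRNAs were likewise highest at day 1, at 4.72 to 5.29, and miR-429 was not detected at baseline or day 21. Of the 5 tested, 4, 4, 3, 3 and 0 were called higher and 1 lower on each of days 1, 3, 4, 7 and 21. At day 7 their median was 1.59, with miR-200a at 5.40 ± 0.47 and miR-203 at -0.91 ± 0.18. miR-451, the red cell miRNA, ranged from 0.75 to 2.03 at day 1 on the median scale, where its mean of 1.58 stood against -0.33 relative to U6, and from -2.97 to -1.67 at day 7, when it fell on both scales.

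Of 12 measured miRNAs linked to muscle differentiation, 8, 8 (of 11 tested), 9, 7 and 4 fell on days 1, 3, 4, 7 and 21, with 0, 1, 1, 2 and 1 higher. Over all miRNAs 38.9%, 41.0%, 41.3%, 35.7% and 19.2% were called lower on those days, and 9.00%, 19.3%, 25.4%, 31.5% and 22.1% higher. The list median was -1.42, -1.31, -1.40 and -1.23 through day 7 and -0.03 at day 21. miR-26a, another regulator of Ezh2, was at -2.29 ± 0.16 at day 7 and at -0.89 at day 21, where it did not pass relative to U6. At day 21 the median of that list lay near 0 and the 3 miR-29 members between -1.76 and -1.10. That median hides changes both ways. The 4 that were lower, miR-1, miR-133a, miR-133b and miR-499, stood at -1.44, -1.27, -1.24 and -2.07. These are sizes like those of miR-29, so a loss lasting to day 21 was not particular to the family. The 1 called higher was miR-503, at 1.51.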

How the data were processed

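The deposited files held raw Ct values, an unnormalized unit other than a count or a ratio, from the authors' instrument. Per the labels, total RNA with an integrity number over 9 was assayed by TaqMan RT-PCR for 40 cycles. How the Ct threshold was set is not given in the sources used here. Each of the 5 files repeated the same baseline values, which entered once. Wells at Ct 40 were left out. A miRNA was tested where under Ct 35 in at least 3 of 4 values of both arms. Values were scaled by each position's median change from the baseline mean over 205 miRNAs, and separately by U6. All 6 arms entered a single fit with limma 3.58.1 in R 4.3.3, with two-sided p-values adjusted by Benjamini-Hochberg. The fit was also run on simulated data in which no reference RNA shifted, so that run cannot speak to the choice of scaling. Member differences were tested by exact permutation. The members, lists and tests were chosen with earlier results of these data known. Named miRNAs were the 3 members, up to 4 per list by size of change at day 7, and the 5 most like each member. Shifts of member ratios between successive time points were added after their values were seen. Alternatives covered scaling, Ct limits, wells at 40, the arms fitted, the variance prior and single values left out. With Ct data, depth has no counterpart, and 4 values per arm limit the precision.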

Additional observations from a re-analysis of the deposited data

Results flagged for a closer look

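No value stood apart from the other 3 of its arm among 36 groups of 4 tested by the gap to its neighbour over the range, a limit that chance exceeds in about 1 of 20 groups. A difference between time points was tested directly and passed under both scalings for miR-29b from day 1 to day 3, at 0.62, for miR-29a from day 7 to day 21, at 1.06, and for miR-29c from day 7 to day 21, at 1.97. These are log2 changes on the scale of the median miRNA.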

How the results depend on the processing

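No paired analysis was possible because no label ties values of different time points to one another. Changes of the 3 members were recomputed under 8 other scalings, other Ct limits, another fit and with each value left out; other Ct limits, wells kept at Ct 40 and eBayes with trend altered no sign or side of the threshold. The scaling altered most, and the cause was not tested. Values are log2 changes of miR-29a (a), miR-29b (b) and miR-29c (c), written as the later against the earlier time point, in the order named.
Relative to U6, signs turned for b at days 3 and 4 against baseline (-0.67, -0.63), a and c from day 1 to 3 (0.21, 0.23), b from day 3 to 4 (0.033) and c from day 4 to 7 (0.10). On that scale a and b passed at day 1 (-2.28, -2.08), while a from day 3 to 4 (-0.12), a and b from day 4 to 7 (-0.065, -0.26) and b from day 7 to 21 (-0.65) no longer passed.
Relative to snoRNA135, b turned at days 3 and 4 (-1.32, -1.49). Newly past the threshold were a and b at day 1 (-1.72, -1.52) and c from day 1 to 3 (-0.98), and lost were b from day 1 to 3 (0.20) and a from day 3 to 4 (-0.33) and 4 to 7 (-0.29). Relative to U87, a passed at day 1 (-0.82), and lost were b at day 3 (0.11), a from day 1 to 3 (-0.47), 3 to 4 (-0.23), 4 to 7 (-0.50) and 7 to 21 (0.68), and b from day 4 to 7 (-0.69). Relative to snoRNA202, lost were b at day 7 (-0.14), a from day 1 to 3 (-0.41), 3 to 4 (-0.53), 4 to 7 (-0.33) and 7 to 21 (0.39), and b from day 4 to 7 (-0.52).
Relative to Y1, signs turned for a, b and c at day 1 (2.37, 2.57, 0.78), a at day 3 (0.38), b at day 7 (0.31), b from day 1 to 3 (-0.79), and a and c from day 4 to 7 (0.16, 0.32). Newly past were c from day 1 to 3 (-1.97) and b and c from day 3 to 4 (-1.44, -1.75). Lost were a, b and c at day 21 (-0.03, -0.34, -0.69), b from day 4 to 7 (-0.03) and b from day 7 to 21 (-0.65).
Relative to the median Ct, b turned at day 4 (-0.21), and a at day 1 (-0.52) and b and c from day 3 to 4 (-0.69, -1.0) passed. With quantile scaling, a turned at days 3 and 4 (0.12, 0.25), from day 1 to 3 (0.19) and 3 to 4 (0.13), and b at day 4 (-0.27). There b passed at day 1 (-0.49) and from day 3 to 4 (-0.76), and a was lost at days 7 and 21 (-0.43, -0.20) and from day 7 to 21 (0.23). In raw Ct, a and b turned at day 1 (0.018, 0.22) and b at day 7 (0.40), b passed at day 4 (0.98), and lost were a at day 3 (-0.23), from day 1 to 3 (-0.25), 3 to 4 (-0.34), 4 to 7 (-0.40) and 7 to 21 (0.013), b from day 4 to 7 (-0.59) and c from day 7 to 21 (0.92).
With only the 2 arms of a comparison fitted, a passed at day 1 (-0.37) and was lost from day 3 to 4 (-0.57). With single values left out, b ranged from 0.35 to 0.54 at day 3 and from -0.077 to 0.16 at day 4, and from day 3 to 4 a ranged from -0.73 to -0.42, b from -0.53 to -0.30 and c from -1.11 to -0.36. Of all miRNAs at day 21, 156 passed on the median scale and 88 on that of U6. The ratio of a to b at day 21 passed with limma (0.31) and not by exact permutation.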
